A study of Mus musculus with 9 samples.

Results

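The genes of oxidative phosphorylation were followed here in LSK bone marrow cells of young mice, aged mice and aged mice given CASIN. Members were all genes of the deposited matrices whose symbol begins with Nduf, Uqcr, Cox4 to Cox8, Atp5, mt-Nd, mt-Co, mt-Cytb or mt-Atp, together with Sdha, Sdhb, Sdhc and Sdhd. The rule found 106 of the 31053 genes, 93 encoded in the nucleus and 13 in the mitochondrial genome. Complex I held 7 mitochondrially encoded subunits, 7 nuclear core subunits, 29 nuclear accessory subunits and 8 assembly factors. Complex II held 4 nuclear subunits. Complex III held 1 mitochondrially encoded and 8 nuclear subunits, and complex IV held 3 and 19. Complex V, the ATP synthase, held 2 mitochondrially encoded subunits, 16 nuclear subunits and the coupling factor Atp5s. Cox7a2l, known for helping complexes III and IV to join into supercomplexes, was the remaining member. Whether it does so in these mice was not tested. In the cells analysed, 3 members had under 10 UMIs, and 1 of these had none (a second Atp5o locus that overlaps the first).

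The respiratory chain passes electrons from NADH (complex I) and succinate (complex II) through complexes III and IV to oxygen, and the proton gradient that complexes I, III and IV build drives ATP synthesis by complex V. Complexes I, III, IV and V are mosaics, with a hydrophobic core made inside the mitochondrion from mitochondrial DNA and the remaining subunits imported from the cytosol, whereas complex II is wholly nuclear. Quiescent haematopoietic stem cells are known for relying largely on glycolysis, and their exit towards proliferating, lineage-restricted progenitors is known to go with a rise in mitochondrial respiration.

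LSK cells are lineage-negative marrow cells that carry Sca-1 and cKit, the fraction that holds stem cells and multipotent progenitors. All mice were C57BL/6. The 3 young samples came from animals aged 10 to 12 weeks and the 3 aged samples from animals over 80 weeks old, both given vehicle, and the 3 CASIN samples from animals over 80 weeks old that received 25 mg/kg CASIN, an inhibitor of the activity of the small GTPase Cdc42, by 4 intraperitoneal injections 24 h apart, with marrow taken on day 5. Marrow cells had been frozen viably and thawed before 3′ single-cell sequencing. Batch 1 held young 1, young 2, aged 1, CASIN 1 and CASIN 2, and batch 2 held young 3, aged 2, aged 3 and CASIN 3. The labels do not say whether a sample is 1 mouse or a pool, so p-values measure the spread between these samples.

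The 9 libraries held 19237354 to 42780953 UMIs. Of 32387 barcodes, 15975 had 1000 to 40000 UMIs, at most 6000 genes and at most 10% mitochondrial UMIs and were kept. The last limit acts on the members themselves, because the 13 genes it sums are all members. It fell unevenly, since 63.8% of the barcodes of batch 2 and 22.9% of those of batch 1 lay above it, and kept cells still held a median of 6.04% and 3.05% mitochondrial UMIs. Each group difference below was therefore fitted with a batch term, and values are given by batch. The limit also fell unevenly between groups within a batch, which a batch term does not adjust. Of barcodes within the UMI and gene limits, it removed 9.18% and 5.47% in young 1 and 2 of batch 1. There it removed 12.6% in aged 1 and 25.5% and 12.4% in CASIN 1 and 2. In batch 2 it removed 59.2% in young 3, 67.0% and 65.9% in aged 2 and 3 and 61.4% in CASIN 3. Kit and Ly6a (Sca-1) together gave 222 to 423 CPM (counts scaled to a total of 1e6 UMIs) in every sample, while of the lineage genes Cd8a and Ly6g stood at 0 to 0.0496 CPM, Itgam (CD11b) at 3.59 to 10.7 CPM and Cd79a, a B cell gene, at 1.88 to 21.5 CPM. The 7 lineage genes listed summed to 10.5 to 25.9 CPM in young, 8.86 to 23.3 CPM in aged and 7.46 to 30.9 CPM in CASIN samples. Summed neutrophil markers were 407 CPM in aged 3 and 2.96 to 87.2 CPM in the other samples, and the part of these genes in the results was not tested. Libraries shared 0 to 23 barcodes per pair.

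Clusters were made with the member genes left out, so that no member defined the class in which it was measured, although the mitochondrial percentage had been regressed out. Classes were named by their markers: HSC-like (3534 cells), MPP3-like (3310), LMPP-like (3144) and cycling-like (1798) were the largest, and 4 smaller fitted classes are named where they first appear. MPP1-like and interferon-like cells, with 17 and 16 cells in the smallest sample, were not fitted. Clusters of 107 cells led by Igkc and Jchain, 95 led by Lgals3 and F13a1 and 85 led by Elane and S100a8 were given no class. These cells stayed in the sums over all LSK cells. MPP stands for multipotent progenitor. The LMPP is the lymphoid-primed multipotent progenitor. The HSC-like share of kept cells was 11.7%, 12.98% and 20.4% in young, 31.4%, 24.0% and 20.7% in aged and 23.0%, 22.4% and 33.8% in CASIN samples, so differences over all LSK cells mix levels within a class with the make-up of the sample, and these were separated only by the fits within classes.

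Among nuclear members, 5 had the highest mean level over all LSK cells. Cox8a, a small subunit of complex IV, ranged from 669 to 1065 CPM over the 9 samples. Atp5g2, which encodes the c subunit of the ATP synthase rotor, ranged from 534 to 999.6 CPM and Ndufa4, a complex IV subunit first assigned to complex I, from 504 to 1015 CPM. Atp5e, the epsilon subunit of the ATP synthase, ranged from 426 to 909.6 CPM and Cox7c, another small subunit of complex IV, from 391 to 829 CPM. Although the ranges overlapped, Cox8a was the highest of these 5 in 9 of 9 samples, and Atp5g2 and Atp5e each lay above Cox7c in 9 of 9. The order of Atp5g2, Ndufa4 and Atp5e changed between samples. A UMI marks 1 captured transcript end whatever the length of the transcript, so CPM was not divided by length.

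Promoter sequence was examined because most nuclear members moved together between classes. RefSeq windows of 300 bases, 250 before and 50 after the start on GRCm38.p6, were matched to 76 of the 92 nuclear member symbols, 2 of them by an older symbol, and searched on both strands. The core GCGCANGCG of nuclear respiratory factor 1 (NRF1), the factor best known for acting on respiratory chain genes, lay in 27.6% of member windows (21 windows) and in 6.47% of all 27025 windows. The core CCGGAAG bound by ETS factors such as GABPA lay in 22.4% of member windows (17) against 9.12% of all. The YY1 core AAGATGG lay in 14.5% (11) against 6.48%, CCAAT in 44.7% (34) against 37.9% and TATAAA in 9.21% (7) against 14.2%. The 27025 windows were not limited to expressed genes or matched to the members in base composition. Whether these shares are particular to the members was not tested. A match is a description of these letters and not a binding site. The 150 bases before the start are shown for the 3 members called between classes that held both the NRF1 and the ETS core there (Cox6a1, Sdhd and Atp5h) and for Ndufa4, which held neither. They are written 5′ to 3′ along the gene, and capitals mark the NRF1 core or the ETS core on either strand.
Cox6a1 (chr5:115348959-115349108, minus strand): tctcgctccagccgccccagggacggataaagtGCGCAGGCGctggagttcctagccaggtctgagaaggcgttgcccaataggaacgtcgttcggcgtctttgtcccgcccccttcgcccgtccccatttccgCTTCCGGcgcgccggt
Sdhd (chr9:50603850-50603999, minus strand): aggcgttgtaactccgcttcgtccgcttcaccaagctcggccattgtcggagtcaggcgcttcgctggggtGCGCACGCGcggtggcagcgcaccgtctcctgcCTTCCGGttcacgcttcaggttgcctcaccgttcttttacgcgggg
Atp5h (chr11:115419920-115420069, minus strand): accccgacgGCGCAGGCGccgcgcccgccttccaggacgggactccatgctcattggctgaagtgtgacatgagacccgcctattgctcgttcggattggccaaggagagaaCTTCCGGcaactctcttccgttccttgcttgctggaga
Ndufa4 (chr6:11907451-11907600, minus strand): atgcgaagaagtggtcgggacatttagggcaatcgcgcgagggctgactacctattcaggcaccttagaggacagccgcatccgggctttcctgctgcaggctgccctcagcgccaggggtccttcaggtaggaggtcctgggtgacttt
In the first 3 promoters the ETS core appears as its reverse complement, CTTCCGG. All 4 genes were higher in LMPP-like and cycling-like than in HSC-like cells, as given next. The first 3 were taken only from members called higher in cycling-like cells, so their direction there was set by that choice. Whether these letters go with the difference between classes was not tested.

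Nuclear subunits were higher, and mitochondrially encoded subunits lower, in LMPP-like than in HSC-like cells. Of 87 nuclear members tested, 69 were higher and 2 lower at an adjusted p below 0.05 (edgeR quasi-likelihood test with a term for each sample), against 33.5% higher and 26.2% lower among all 11059 genes. Their median log2 fold change was 0.27, against 0.04 over all genes. All 13 mitochondrially encoded members had values below 0, 12 of them called, with a median of -0.20. The exception was mt-Nd5, at -0.06. The direction was shared by the samples: the members' nuclear share of UMIs in LMPP-like cells was 1.03 to 1.26 times that in HSC-like cells in 9 of 9 samples, and the mitochondrially encoded share was 0.748 to 0.877 times.

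**Figure D1:**
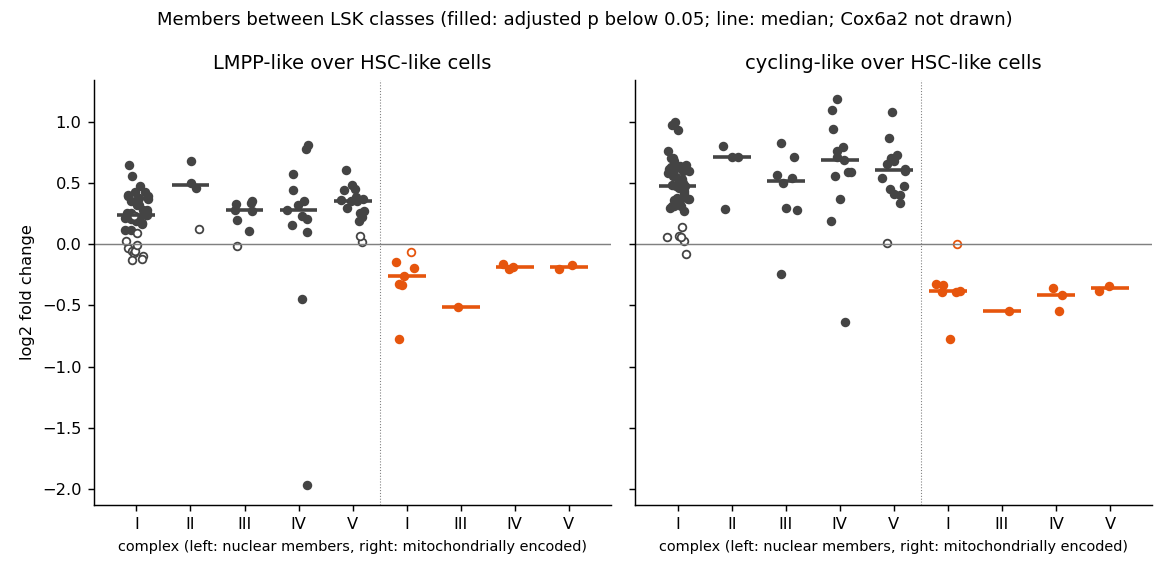
Log2 fold change of each member (vertical axis) between LSK classes, by complex (horizontal axis), with nuclear members left of the dotted line and mitochondrially encoded ones right of it; each point is a gene, filled where the adjusted p was below 0.05, and bars are medians. Cox6a2 lies above the axis and is not drawn. Nuclear points lie mostly above 0 and mitochondrially encoded points below it in both panels, with nuclear medians over all complexes of 0.27 (LMPP-like) and 0.55 (cycling-like).

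The rise ran through all complexes. In LMPP-like cells 30 of 36 nuclear subunits of complex I, 3 of 4 of complex II, 7 of 8 of complex III, 12 of 14 of complex IV and 14 of 15 of complex V were called higher. Of the 8 assembly factors of complex I, which build the complex but are not part of it, 3 were called higher. That share is close to the 33.5% of all genes. The median of these factors was 0.09, against 0.04 over all genes. Leaving aside Cox6a2 and Cox4i2, the isoforms described below, whose changes were larger, the members with the largest fold changes were Cox5a, an early-assembling subunit of complex IV, at 0.81 (SE 0.07), Ndufa4 at 0.78 (SE 0.05), Sdhb, the iron-sulphur subunit of complex II, at 0.68 (SE 0.04), the assembly factor Ndufaf6 at 0.65 (SE 0.11) and Atp5o, a stalk subunit of complex V, at 0.61 (SE 0.06). Each was higher in 9 of 9 samples. Of the 3 promoters shown with both cores, Sdhd, a membrane anchor of complex II, rose by 0.46, Cox6a1, a subunit of complex IV, by 0.45 and Atp5h, a stalk subunit of complex V, by 0.25 on the log2 scale.

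Cox5a is shown by sample. In HSC-like cells its level was 305, 278 and 225 CPM in young, 234, 192 and 208 CPM in aged and 240.3, 226 and 182 CPM in CASIN samples. In LMPP-like cells it was 455, 438 and 319 CPM in young, 488, 334 and 295 CPM in aged and 463, 441 and 292 CPM in CASIN samples. Within each batch every LMPP-like value lay above every HSC-like value. Among mitochondrially encoded members, mt-Nd6 fell most, by 0.78 (SE 0.12) on the log2 scale, followed by mt-Cytb, the only mitochondrially encoded subunit of complex III, which fell by 0.51 (SE 0.05).

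The same 2 directions were seen in cycling-like cells, with larger medians. There 77 of 87 nuclear members were called higher and 3 lower than in HSC-like cells, against 33.9% higher and 34.2% lower of all genes, and the median was 0.55 against -0.02 over all genes. Of the mitochondrially encoded members 12 of 13 were lower, with a median of -0.38, and mt-Nd1 was at -0.00 (SE 0.05). All 15 tested nuclear subunits of complex V, all 4 of complex II and 34 of 36 of complex I were higher. Apart from Cox6a2, which is described below and whose change was larger, the largest fold changes were Ndufa4 at 1.19 (SE 0.05), Cox5a at 1.09 (SE 0.07), Atp5o at 1.08 (SE 0.06), Ndufaf6 at 1.00 (SE 0.11), Ndufab1, the acyl carrier subunit of complex I, at 0.98 (SE 0.06), Cox6a1 at 0.94 (SE 0.04) and Ndufv1, the NADH-binding core subunit, at 0.93 (SE 0.05). The 3 members lower in cycling-like cells were Cox4i2 (-0.64), Cox7a2l (-0.42) and Uqcrh, the hinge subunit of complex III (-0.25), the last of these named after its value was seen. The ratio of mitochondrially encoded to nuclear member UMIs in cycling-like cells was 0.454 to 0.619 times that in HSC-like cells of the same sample. Cycling-like cells were also deeper, with sample medians of 17994 to 28224 UMIs per cell against 8494.5 to 12821 in HSC-like cells. LMPP-like cells, with sample medians of 10472.5 to 15727, were deeper than the HSC-like cells of the same sample in every sample. The part of depth in either difference was not tested.

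**Figure D2:**
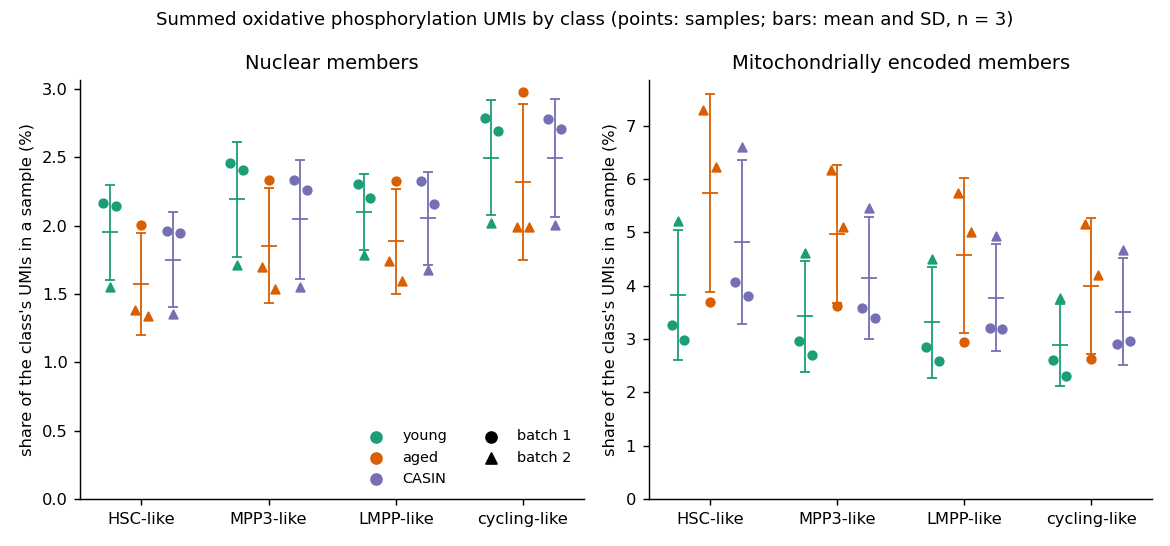
Share of a class's UMIs (%) taken by nuclear members (left) and by mitochondrially encoded members (right) in 4 classes; points are samples (circles batch 1, triangles batch 2), and bars give the mean and SD of 3 samples. HSC-like cells have the lowest nuclear and the highest mitochondrially encoded shares of the 4 classes in every sample, and batch 2 lies below batch 1 on the left and above it on the right.

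Genes outside the list gave context. Of all 11059 genes 33.5% were higher and 26.2% lower in LMPP-like cells, and 33.9% higher and 34.2% lower in cycling-like cells. Of 77 tested mitochondrial ribosome genes 51 were higher and 2 lower in LMPP-like than in HSC-like cells, and 71 higher and 2 lower in cycling-like cells, with Mrpl33 at 0.50 and 0.79. Of 13 tricarboxylic acid cycle genes 8 and 10 were higher, among them Idh3a, a subunit of isocitrate dehydrogenase, at 0.68 and 1.11. Of 11 genes for carriers and cytochrome c 8 and 10 were higher, among them Cycs, cytochrome c itself, at 0.94 and 1.39. Glycolysis genes moved both ways, with 8 higher and 5 lower of 14 in LMPP-like cells, both above the shares of all genes. Among the higher ones was Pgk1, at 0.63 there and 0.86 in cycling-like cells. The glycolysis counts in cycling-like cells are not given here. Of 8 transcriptional regulators of mitochondrial genes 4 and 6 were higher, with Nrf1 at 0.60 in cycling-like cells. Of 15 genes for mitochondrial DNA upkeep and expression 5 were higher and 2 lower in LMPP-like cells and 7 higher and 2 lower in cycling-like cells. Further assembly factors split, with 7 higher and 4 lower of 35 in LMPP-like and 16 higher and 3 lower in cycling-like cells. In LMPP-like cells neither this list nor that for mitochondrial DNA upkeep and expression exceeded the share of all genes called higher.

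A few subunits exist as alternative isoforms from separate genes, and 2 of these differed sharply between classes. Cox6a2, the isoform of the COX6A subunit known from heart and skeletal muscle, was read among the named classes mainly in LMPP-like and cycling-like cells. Over all LSK cells 2876 UMIs were counted, and part of them lay in the cells given no class. The level of Cox6a2 in those cells was not computed and may be as high as in LMPP-like cells. Cox6a2 may therefore not be particular to the named classes. In LMPP-like cells its level was 43.3, 86.8 and 13.1 CPM in young, 49.6, 29.3 and 10.1 CPM in aged and 41.6, 109 and 6.01 CPM in CASIN samples, 2087 UMIs in all. In HSC-like cells 5 UMIs were counted over all 9 samples, with 0 in young 1, young 2 and every aged sample and at most 2 in any sample. The pooled ratio of LMPP-like to HSC-like level was 348, with a counting interval (95%) of 149 to 1072 that covers counting error only. Within LMPP-like cells batch 1 gave 41.6 to 109 CPM and batch 2 gave 6.01 to 29.3 CPM, without overlap. In cycling-like cells 470 UMIs were counted and in MPP3-like cells 42. The common isoform Cox6a1 stood at 124 to 172 CPM in LMPP-like and 101 to 143 CPM in HSC-like cells, without the difference in scale seen for Cox6a2.

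Cox4i2, the isoform of COX4 known from lung and low oxygen, ran the other way. In HSC-like cells it stood at 9.82, 7.49 and 6.08 CPM in young, 7.37, 8.02 and 10.6 CPM in aged and 8.69, 3.59 and 8.91 CPM in CASIN samples. In LMPP-like cells its 9 values lay between 1.02 and 2.97 CPM, all below the HSC-like values. The totals were 296 and 85 UMIs and the log2 fold change was -1.97 (SE 0.19, adjusted p = 7.52e-09). Pooled over samples it stood at 7.90 CPM in HSC-like, 3.83 CPM in MPP3-like and 4.88 CPM in cycling-like cells. It was at 3.54 CPM in the HSC-like cluster led by MHC class II genes and 3.67 CPM in that led by immediate-early genes. In the cluster led by Pf4 it was at 5.73 CPM, and there young 2, aged 1 and CASIN 2 lay above their HSC-like values. Cox4i2 was the scarce isoform everywhere, since Cox4i1 stood at 478 to 749 CPM in HSC-like cells. Cox6b2, the isoform known from testis, fell by 0.44 (SE 0.08) in LMPP-like cells and rose by 0.71 (SE 0.07) in cycling-like cells relative to HSC-like cells.

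**Figure D3:**
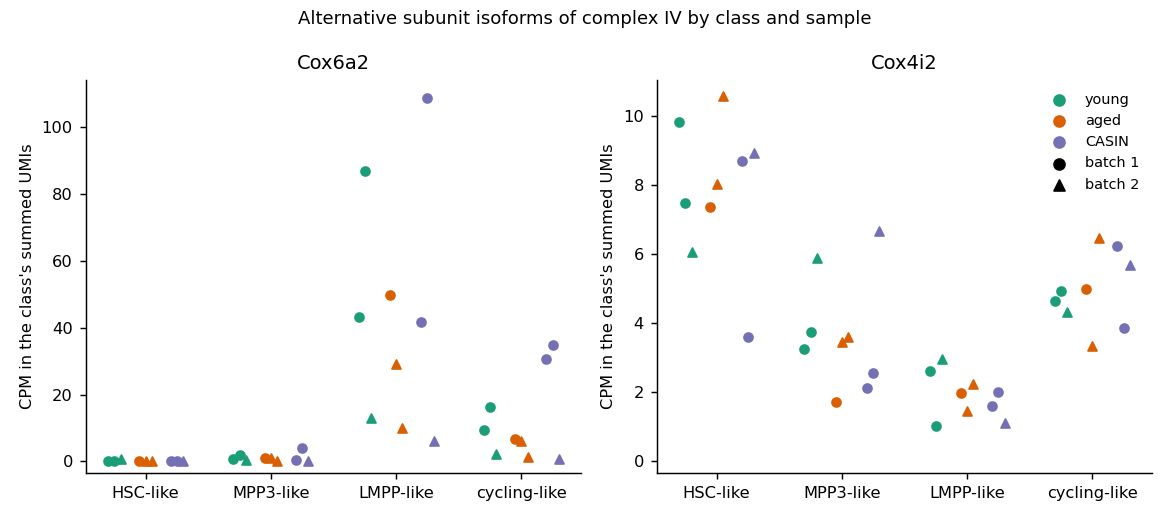
Level (CPM of the class's summed UMIs) of Cox6a2 (left) and Cox4i2 (right) in 4 classes; each point is a sample, coloured by group, circles for batch 1 and triangles for batch 2. Cox6a2 is at 6.01 to 109 CPM in LMPP-like cells and at 0 to 0.675 CPM in HSC-like cells. The pooled Cox4i2 level is highest in HSC-like cells, though in CASIN 2 cycling-like cells (3.86 CPM) lie above HSC-like cells (3.59 CPM).

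The other isoform pairs were lopsided and gave medians over the 9 samples of all LSK cells of 445 CPM for Cox6b1 against 45.9 CPM for Cox6b2, and of 344 CPM for Cox7a2 against 1.82 CPM for the muscle isoform Cox7a1. The related Cox7a2l stood at 385 CPM. Cox8a had a median of 1025 CPM, while Cox8b and Cox8c were each read in 1 sample. Ndufa4l2, the paralog of Ndufa4 known for induction by low oxygen, was read in 4 samples at up to 0.176 CPM. The 3 genes Atp5g1, Atp5g2 and Atp5g3, which encode the same mature c subunit, shared their output as 340.3, 866 and 257 CPM.

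Between aged and young samples, 2 to 7 of the 13 mitochondrially encoded members, mt-Co1 and mt-Co3 of complex IV always among them, were called higher with age over all LSK cells and in 5 of the 8 fitted classes, and none in LMPP-like, cycling-like or Hist1h1c cells. The 13 genes lie on the same genome and the classes come from the same libraries, so these calls are not separate results. The only nuclear member called by edgeR was Ndufaf4, in HSC-like cells. Over all LSK cells 2 of the 13 mitochondrially encoded members rose and 0 of the 88 nuclear members tested passed, against 3.31% higher and 0.46% lower of 13696 genes. At an unadjusted p below 0.05 there were 6 and 7, against 21.9% of all genes, a share that the nuclear members did not reach. DESeq2 called 4 mitochondrially encoded members higher and 3 nuclear members lower, against 8.26% of genes in either direction. The 2 called members were mt-Co1, which encodes the catalytic subunit of complex IV (log2 fold change 0.36, SE 0.07, adjusted p = 0.0267), and mt-Co3, another core subunit of complex IV (0.45, SE 0.09, adjusted p = 0.0342). The median over mitochondrially encoded members was 0.26 and that over nuclear members -0.04, against 0.02 over all genes. Without young 1, young 2, aged 1 or CASIN 1 no member was called, so passing the threshold depended on each of these libraries. Leaving out 1 sample at a time, the log2 fold change was 0.32 to 0.39 for mt-Co1 and 0.35 to 0.52 for mt-Co3.

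In HSC-like cells 6 of 13 mitochondrially encoded members rose from young to aged, against 6.32% of 11268 genes, and 1 of 86 nuclear members fell, against 3.35%. The nuclear share did not exceed that of all genes. The 6 were mt-Co1, mt-Co3, mt-Nd3, mt-Co2, mt-Atp6 and mt-Nd1. In HSC-like cells mt-Co1 was at 6732, 7069.5 and 11154 CPM in young samples 1 to 3 and at 8760.3, 14777 and 13673 CPM in aged samples 1 to 3. Young 3, of batch 2, lay above aged 1, of batch 1, so the groups overlapped across batches, but within each batch each aged value lay above each young value. The log2 fold change was 0.43 (SE 0.07, adjusted p = 0.00237), and 0.42 in each batch taken alone.

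For mt-Co3 the young values were 3788, 3632 and 9340.1 CPM and the aged values 4458, 15629 and 12803 CPM. It differed more between batches, by a mean of 1.42 on the log2 scale over all LSK cells, than between groups, and within both batches aged samples were higher (0.50, SE 0.10, adjusted p = 0.00571). For mt-Nd3, a small membrane subunit of complex I, the young values were 465, 457 and 402 CPM and the aged values 657, 582 and 448 CPM, and the lowest aged value lay below the 2 young values of batch 1 (0.53, SE 0.11, adjusted p = 0.00795). The remaining calls were mt-Co2, the copper subunit of complex IV that takes electrons from cytochrome c (0.35, adjusted p = 0.0225), mt-Atp6, the proton channel subunit of complex V (0.34, adjusted p = 0.0263), and mt-Nd1 of complex I (0.41, adjusted p = 0.0422). Of the other 7, mt-Cytb was at 0.36 (adjusted p = 0.0735), mt-Nd6 at 0.42, mt-Nd4 at 0.24, mt-Nd2 at 0.19, mt-Atp8 at 0.12, mt-Nd5 at -0.08 and mt-Nd4l at -0.34, none of them called.

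**Figure D4:**
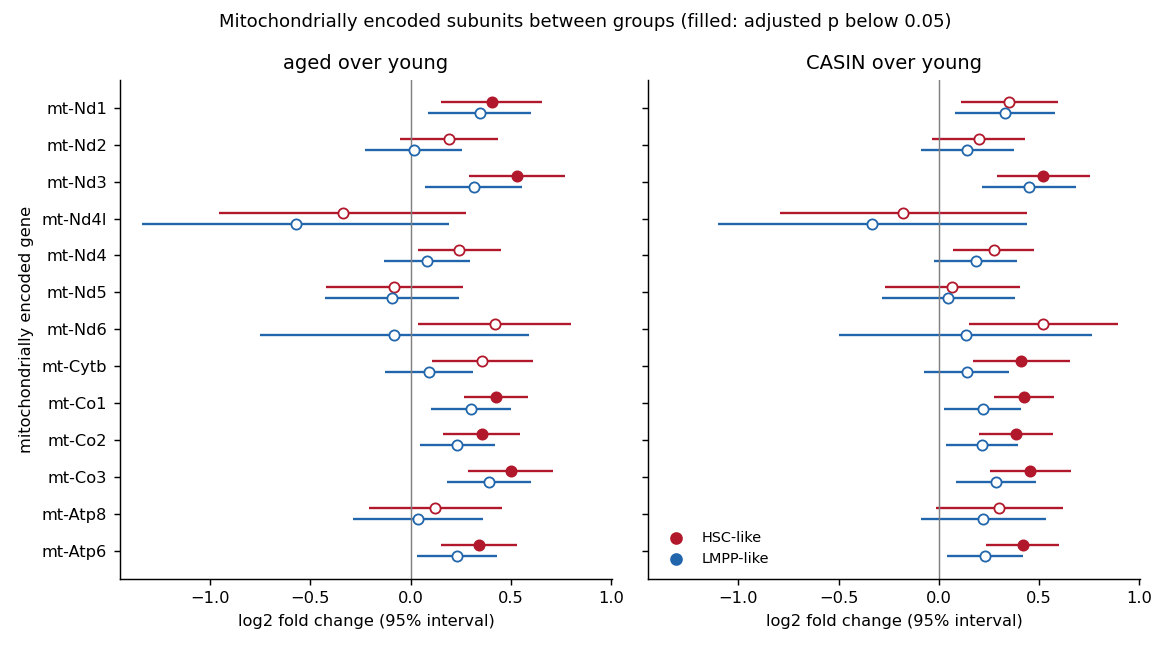
Log2 fold change with its 95% interval (horizontal axis) for each of the 13 mitochondrially encoded genes (vertical axis) between aged and young (left) and CASIN and young (right) samples, in HSC-like (red) and LMPP-like (blue) cells; filled points had an adjusted p below 0.05. In HSC-like cells 6 genes are filled in each panel and in LMPP-like cells none, and mt-Nd4l, mt-Nd5 and mt-Nd6 have wide intervals.

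The nuclear member that fell was Ndufaf4, an assembly factor of complex I. Its HSC-like level was 54.5, 43.4 and 41.2 CPM in young and 32.2, 32.1 and 28.0 CPM in aged samples, without overlap (log2 fold change -0.45, SE 0.13, adjusted p = 0.0422). The nuclear median in HSC-like cells was -0.07. The 7 calls became 2 without aged 1 and 4 without young 2 or young 3. The mitochondrial limit of 5% in place of 10% gave 4. Without the batch term 0 members were called.

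In the other classes with at least 20 cells in every sample, mitochondrially encoded members also made up the calls between aged and young. Immediate-early HSC-like cells, an HSC-like cluster led by immediate-early genes with 29 to 246 cells in a sample, had 7 (background 5.33% higher): mt-Co3 (0.59), mt-Co1 (0.46), mt-Co2 (0.45), mt-Nd3 (0.56), mt-Atp6 (0.42), mt-Cytb (0.47) and mt-Atp8 (0.57). MHC class II HSC-like cells had 4 (background 1.69%): mt-Co1 (0.43), mt-Co3 (0.50), mt-Atp6 (0.36) and mt-Co2 (0.35). MPP3-like cells had 3 (background 1.02%): mt-Co3 (0.48), mt-Co1 (0.38) and mt-Co2 (0.35). The cluster led by Pf4 had 2 (background 0.987%), mt-Co3 (0.47) and mt-Co1 (0.36). No member was called in LMPP-like cells (background 0.225%), where mt-Co3 was at 0.39 (adjusted p = 0.166), mt-Co1 at 0.30 and mt-Nd1 at 0.34. None was called in cycling-like cells (background 0.313%), where Ndufc1 was at 0.33, Ndufaf2 at 0.33 and Ndufa3 at 0.30, or in the cluster led by Hist1h1c (background 0.116%), where mt-Co3 was at 0.25, Atp5k at 0.38 and mt-Co1 at 0.20. At an unadjusted p below 0.05 there were 6, 5 and 2 mitochondrially encoded and 4, 10 and 2 nuclear members in these 3 classes, against 9.99%, 12.8% and 8.24% of all genes.

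CASIN samples did not differ detectably from aged samples in any member. Over all LSK cells 0 of 13696 genes were called (background 0%), and 441 genes (3.22%) and 0 members had an unadjusted p below 0.05. DESeq2 also called 0 members and 1 gene in all (0.0073%). The 3 members with the smallest p were Ndufaf5 (-0.31), Ndufaf2 (-0.17) and Ndufc1 (-0.13), all with an adjusted p of 0.986. In HSC-like cells 0 of 11268 genes were called (background 0%), with 402 genes (3.57%) and 0 members at an unadjusted p below 0.05, and among the members with the smallest p Uqcrc2 was at -0.14 and Atp5a1 at -0.13. The HSC-like mt-Co1 level was 9211, 9146 and 13469 CPM in CASIN samples 1 to 3, beside 8760.3 CPM in aged 1 of batch 1 and 14777 and 13673 CPM in aged 2 and aged 3 of batch 2. These comparisons had 3 samples per group, so smaller differences than those called with age could have been missed. None of the 8 fitted classes had a called member by edgeR, and at most 1 gene of any kind was called in a class (background 0.00901% in LMPP-like, 0.0117% in MHC class II HSC-like and 0% in the other classes). At an unadjusted p below 0.05 there were 0 to 4 members of a class. The share of all genes at that p was 5.72% in MPP3-like, 5.74% in LMPP-like, 8.69% in cycling-like, 3.08% in immediate-early HSC-like, 4.14% in MHC class II HSC-like, 4.78% in Hist1h1c and 4.9% in Pf4 cells. The smallest p values belonged to Uqcrc1 (-0.37), Cox6b2 (-0.30) and Sdhc (-0.25) in MPP3-like cells, to Ndufaf1 (0.40), Ndufa9 (-0.21) and Ndufaf4 (-0.22) in LMPP-like cells, and to Uqcrc2 (-0.27), Ndufab1 (-0.21) and Ndufaf2 (-0.25) in cycling-like cells. In immediate-early HSC-like cells they belonged to Ndufaf2 (-0.42), Ndufaf1 (0.63) and Ndufs6 (-0.30), and in MHC class II HSC-like cells to Ndufv1 (0.39), Ndufs8 (-0.30) and mt-Nd6 (0.35). In the Pf4 cluster they belonged to Atp5s (0.91), Ndufb2 (0.28) and Ndufa11 (-0.26), and in the Hist1h1c cluster to Ndufa5 (0.39), Atp5e (-0.20) and Uqcrq (0.25).

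Against the young samples, which the comparison of aged with young also uses, CASIN samples had 1 mitochondrially encoded member called higher over all LSK cells and 4 to 8 in HSC-like cells and 3 further classes, and none in the other 4 fitted classes. Over all LSK cells mt-Co1 rose by 0.31 (SE 0.06, adjusted p = 0.0336; background 3.37% higher) and Ndufa4 fell by 0.42 (SE 0.08, adjusted p = 0.0239; background 0.358% lower). Ndufa4 was at 1015, 999.6 and 689 CPM in young, 758, 603 and 529 CPM in aged and 784, 764 and 504 CPM in CASIN samples. Within each batch every aged and CASIN value lay below the young values. For aged against young its log2 fold change was -0.32 (adjusted p = 0.0606). DESeq2 called 5 mitochondrially encoded members higher and 10 nuclear members lower over all LSK cells, against 9.46% of genes in either direction. Without young 1, young 2 or any of the CASIN samples no member was called over all LSK cells.

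In HSC-like cells 6 of 13 mitochondrially encoded members rose (background 8.69%) and 3 of 86 nuclear members fell (background 5.97%) between young and CASIN samples. The nuclear share did not exceed that of all genes. The mitochondrially encoded members were mt-Co1 (0.43, SE 0.07, adjusted p = 0.00112), mt-Atp6 (0.42), mt-Co3 (0.46), mt-Nd3 (0.52), mt-Co2 (0.38) and mt-Cytb (0.41, adjusted p = 0.0245). The nuclear members included Ndufa4 (-0.30, adjusted p = 0.0213) and Uqcrfs1, the Rieske iron-sulphur protein of complex III (-0.36, adjusted p = 0.0301), which was named after its value was seen. HSC-like Uqcrfs1 was at 145, 172 and 186 CPM in young, 130.2, 121 and 129.7 CPM in aged and 119, 128 and 127 CPM in CASIN samples, with every young value above every aged and CASIN value. Without young 2 or CASIN 1 the count fell from 9 to 5.

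Immediate-early HSC-like cells had 8 of 13 mitochondrially encoded members higher in CASIN than in young samples (background 5.99%). There 4 of 85 nuclear members were lower (background 3.65%), a share close to that of all genes. The nuclear ones were Ndufa4 (-0.48), Ndufab1 (-0.57) and, named after their values were seen, Cox5a (-0.44) and Ndufa9 (-0.59). The highest-ranked mitochondrially encoded ones were mt-Co1 (0.44), mt-Co3 (0.47), mt-Co2 (0.44), mt-Nd3 (0.59), mt-Atp6 (0.42) and mt-Cytb (0.52). MHC class II HSC-like cells (background 2.05%) and the Pf4 cluster (background 0.952%) had the same 4 called members, mt-Co1, mt-Co2, mt-Co3 and mt-Atp6, at 0.36 to 0.42 and 0.34 to 0.43. MPP3-like, LMPP-like, cycling-like and Hist1h1c cells had 0 by edgeR, where few genes of any kind were called (background 0.354%, 0.135%, 0.341% and 0.116%). At an unadjusted p below 0.05 they had 7, 6, 6 and 4 mitochondrially encoded and 4, 1, 5 and 2 nuclear members, against 12.2%, 7.04%, 8.22% and 6.03% of all genes. In MPP3-like cells mt-Co1 was at 0.31 (adjusted p = 0.0843), mt-Co3 at 0.35 and mt-Co2 at 0.29. In LMPP-like cells mt-Nd3 was at 0.45 (adjusted p = 0.216), mt-Co3 at 0.29 and mt-Nd1 at 0.33. In cycling-like cells mt-Nd3 was at 0.42 (adjusted p = 0.191), Uqcrc2 at -0.32 and mt-Nd1 at 0.38, and in Hist1h1c cells mt-Co3 was at 0.26, Ndufa4 at -0.29 and mt-Atp8 at 0.36.

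Whether the difference with age depended on the class was tested directly in HSC-like and LMPP-like cells. For aged against young, 1 mitochondrially encoded member, mt-Cytb, had a smaller log2 fold change in LMPP-like cells, by -0.27 (SE 0.06, adjusted p = 0.00959; background 0.954% lower), and 1 nuclear member, Atp5g1, a larger one, by 0.31 (SE 0.08, adjusted p = 0.044; background 2.43% higher). HSC-like mt-Cytb was at 3526, 2691 and 4426 CPM in young and 3575, 6557 and 5131 CPM in aged samples, whereas LMPP-like mt-Cytb was at 2634, 1993 and 3389 CPM and 2407, 3751 and 3247 CPM. Without aged 1 or aged 2 no member was called. For CASIN against young, 5 mitochondrially encoded members had smaller log2 fold changes in LMPP-like cells (background 2.34% lower and 4.37% higher): mt-Cytb (-0.28, adjusted p = 0.00302), mt-Atp6 (-0.19), mt-Co1 (-0.22), mt-Co3 (-0.18) and mt-Co2 (-0.18). Without young 1, young 2, CASIN 1 or CASIN 3 only 1 was called.

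Summed over the members, the mitochondrially encoded share of UMIs in all LSK cells was 2.90%, 2.62% and 4.56% in young, 3.43%, 6.06% and 5.12% in aged and 3.57%, 3.39% and 5.62% in CASIN samples. The nuclear share was 2.44%, 2.37% and 1.75% in young, 2.25%, 1.70% and 1.58% in aged and 2.28%, 2.22% and 1.56% in CASIN samples. Their ratio was 1.64 ± 0.85 in young, 2.78 ± 1.10 in aged and 2.23 ± 1.18 in CASIN samples (mean ± SD, n = 3 each), and the SDs carry the batch difference. In aged samples 2 of 3 belong to batch 2, and in the other groups 1 of 3.

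The batches differed in the make-up of the mitochondrially encoded UMIs as well as in their amount. In batch 1 mt-Atp8, a small subunit of complex V, took 1.04% to 1.36% of the 13 genes' UMIs, and in batch 2 it took 0.0972% to 0.187%. For mt-Co3 the shares were 11.9% to 12.3% and 17.995% to 21.8%. For mt-Nd3 they were 1.55% to 1.92% and 0.637% to 0.735%, and for mt-Nd4l, a small membrane subunit of complex I, 1.73% to 1.85% and 0.237% to 1.41%. None of these 4 pairs of ranges overlapped, whereas mt-Co1 took 20.7% to 23.7% and 20.1% to 21.8%. The difference between aged and young over all LSK cells had opposite signs in the batches for mt-Nd4l (0.33 in batch 1, -1.39 in batch 2), mt-Atp8 (0.54 and -0.33), mt-Nd5 (0.30 and -0.50) and mt-Nd6 (0.82 and -0.57). The genes mt-Nd4l and mt-Nd4 overlap on the mitochondrial genome, as do mt-Atp8 and mt-Atp6, and each such pair is read from a shared transcript, so the split of their UMIs is uncertain.

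**Figure D5:**
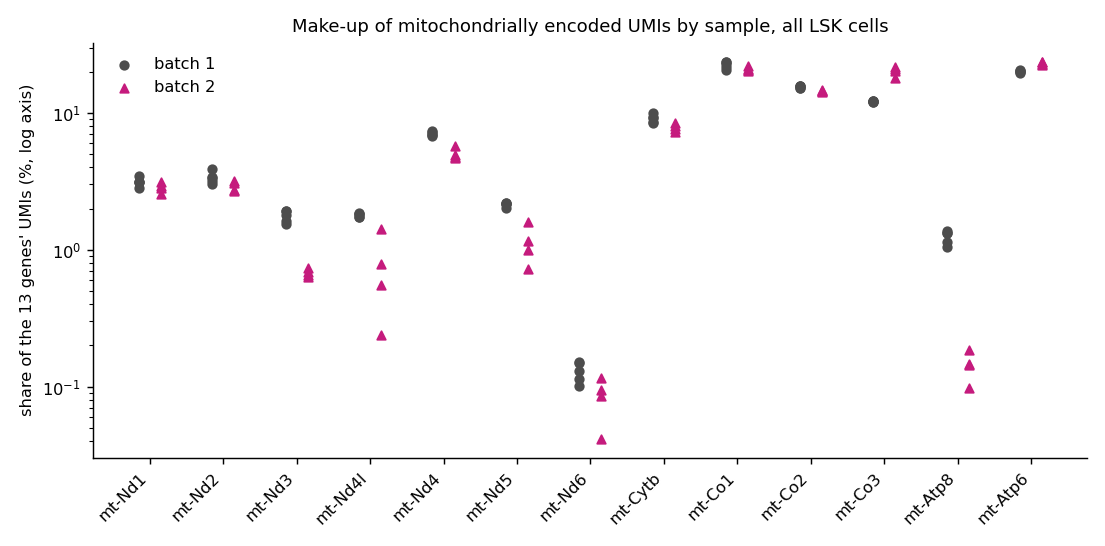
Share of each mitochondrially encoded gene in the UMIs of all 13 (vertical log axis, %) by gene (horizontal axis) in the 9 samples of all LSK cells, batch 1 as grey circles and batch 2 as pink triangles. Among the genes for which the batches separate are mt-Atp8, mt-Co3, mt-Nd3 and mt-Nd4l, with mt-Atp8 at 1.04% to 1.36% and 0.0972% to 0.187%.

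Nuclear members were lower in batch 2. Of the 86 nuclear members with at least 1000 UMIs, 72 were lower in batch 2 in each of the 3 groups and 10 were higher, with a median log2 difference of -0.54. Those 10 included Atp5b, the catalytic beta subunit of complex V (0.72), Cox4i1 (0.45) and Cox7a2l (0.40), which were named after their values were seen. Of the mitochondrially encoded members 8 were higher and 2 lower in batch 2 in all 3 groups, with a median of 0.50. The batch difference was computed for members only, so whether these counts differ from those of all genes was not tested.

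Of the wider lists, few genes passed the test between groups. Over all LSK cells 3.31% of all genes were higher in aged and 3.37% in CASIN than in young samples. In HSC-like cells 6.32% of all genes were higher and 3.35% lower in aged than in young samples. For CASIN against young HSC-like cells the shares were 8.69% and 5.97%. Over all LSK cells Hk2, a hexokinase that can bind the mitochondrial surface, was the only one, at 1.05 between aged and young and 0.87 between CASIN and young samples. In HSC-like cells between aged and young, Hk2 (1.56), Pfkp (0.78) and Ldha (0.56) of 14 glycolysis genes rose. Of 77 mitochondrial ribosome genes 2 fell, Mrpl18 (-0.48) and Mrpl1 (-0.46). Of 15 genes for mitochondrial DNA upkeep and expression 1 fell, Tfam, which packages mitochondrial DNA and helps its transcription to start (-0.39). Suclg1 of the tricarboxylic acid cycle (-0.39), Ucp2, an inner membrane carrier (-0.71), and Vdac2, an outer membrane channel (-0.36), were also lower, out of 13 cycle genes and 11 carrier genes. No regulator or further assembly factor was called. Between CASIN and young HSC-like cells 1 mitochondrial ribosome gene rose and 4 fell, 3 glycolysis genes rose and 3 fell, 3 carrier genes fell and 1 cycle gene fell. For mitochondrial ribosome genes the share called lower in HSC-like cells did not exceed that of all genes in either comparison.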

How the data were processed

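The authors deposited raw counts (UMIs per gene and barcode, not normalized), made with Cell Ranger 3.1.0 per the labels, on GRCm38 with the Ensembl annotation. Barcodes with 1000 to 40000 UMIs, at most 6000 genes and at most 10% mitochondrial UMIs were kept. Cells were integrated and clustered with Seurat 5.3.0 (35 principal components, resolution 0.4, 1200 of 3000 selected genes integrated) without the member genes, and clusters were named from marker lists. Scrublet, run in scanpy 1.11.5, marked 92 kept barcodes (0.576%) as doublets, which were left in and left out only as an alternative. Counts were summed per sample and class and tested with edgeR 4.0.16 (R 4.3.3; TMM, filterByExpr, quasi-likelihood F test, Benjamini-Hochberg adjustment over all genes tested, threshold 0.05) with terms for group and batch over all 9 samples, or for class and sample between classes. Classes with at least 20 cells in every sample were fitted. DESeq2 1.42.0, normalization, filters, the mitochondrial limit, clustering, the replicate block and leaving out each sample were the alternatives. CPM was scaled to a total of 1e6 UMIs of the summed cells. The interval of a ratio of 2 pooled levels is the exact Poisson interval of the smaller count, at a confidence level of 95%. The fits were also run on simulated counts with known changes but no batch difference, so that run does not bear on the batch term. Gene coordinates followed GENCODE vM21, and promoters RefSeq on GRCm38.p6. Figures were drawn with matplotlib 3.10.9.

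Named with values were all mitochondrially encoded members, up to 8 called members per comparison (the smallest adjusted p with the same direction in both batches between groups, the largest fold change between classes) or the 3 with the smallest p where none was called, the 5 nuclear members of highest mean level, and isoform pairs. Members and gene lists were chosen with earlier results of these data known. Some genes covered by this rule are not reported here, though they stay in the fits and counts.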

Additional observations from a re-analysis of the deposited data

Results flagged for a closer look

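In 7 cases a difference between groups was not the same in LMPP-like as in HSC-like cells, by the edgeR test of the difference itself with adjustment over 11955 genes. For aged against young samples the LMPP-like minus HSC-like difference in log2 fold change was 0.31 for Atp5g1 (adjusted p = 0.044) and -0.27 for mt-Cytb (adjusted p = 0.00959). For CASIN against young samples it was -0.28 for mt-Cytb (adjusted p = 0.00302), -0.19 for mt-Atp6 (adjusted p = 0.0199), -0.22 for mt-Co1 (adjusted p = 0.0282), -0.18 for mt-Co3 (adjusted p = 0.034) and -0.18 for mt-Co2 (adjusted p = 0.0453). For aged against young, 1 of 13 mitochondrially encoded members was lower (all genes 0.954%). Of 88 nuclear members tested 1 was higher (all genes 2.43%), which does not exceed the share of all genes. For CASIN against young, 5 of 13 mitochondrially encoded members were lower (all genes 2.34%) and 0 of 88 nuclear members were called. Both comparisons use the same young samples. Atp5g1 in HSC-like cells was at 385, 317 and 240.3 CPM in young and 313, 199 and 182 CPM in aged samples, and in LMPP-like cells at 382, 326 and 270.4 CPM and 379, 291 and 268 CPM. Leaving out 1 sample at a time, an alternative added after seeing the data, gave 0 to 4 called members for aged against young, with 0 without aged 1 or aged 2 and 4 without CASIN 2, and 1 to 6 for CASIN against young, with 1 without young 1, young 2, CASIN 1 or CASIN 3. Causes were not tested.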

How the results depend on the processing

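The counts of called members between LMPP-like or cycling-like and HSC-like cells were 70 to 83 and 91 to 93 under every alternative run. CASIN over aged stayed at 0 called members under every alternative. The aged over young and CASIN over young counts depended on the batch term and on the mitochondrial limit. Over all LSK cells the 2 members called between aged and young became 7 with DESeq2, 4 without the low-count filter, 0 without the batch term, 0 with only these 2 groups, 1 with a mitochondrial limit of 5% and 4 with none. The 2 called between CASIN and young became 15 with DESeq2, 6 without the filter, 0 without the batch term, 9 with only these 2 groups, 0 with a limit of 5% and 6 with none. DESeq2 called 8.26% of all genes between aged and young and 9.46% between CASIN and young. For the other alternatives, and for leaving out 1 sample, the share of all genes called is not given. Whether those counts changed apart from the calls over all genes was not tested. In HSC-like cells the 7 between aged and young became 0 without the batch term and 4 with a limit of 5%, and the 9 between CASIN and young became 0 without the batch term. Without a mitochondrial limit the ratio of mitochondrially encoded to nuclear UMIs was 2.74 ± 2.56 in young, 5.86 ± 3.59 in aged and 3.94 ± 3.49 in CASIN samples (mean ± SD). It was 1.18 to 2.11 in batch 1 and 5.70 to 8.26 in batch 2. Batch 2 holds a larger part of the aged than of the other samples, so these means carry the batch difference.

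Replicate numbers were not taken as pairs. The labels do not tie them to a shared animal or day, and although 7 of 9 pair correlations were over 0.1, those between aged 2, of batch 2, and the other samples numbered 2, of batch 1, were -0.61 and -0.58. All 7 positive pairs share a batch, so number and batch cannot be told apart in them. With the replicate block the aged over young counts were 0 over all LSK cells and 3 in HSC-like cells.

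Leaving out 1 sample gave, over all LSK cells, 0 to 3 members between aged and young and 0 to 6 between CASIN and young, in HSC-like cells 2 to 7 and 5 to 11, in LMPP-like cells 0 to 1 in each, between classes 79 to 83 and 92 to 93, and for the difference between classes 0 to 4 and 1 to 6.

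Of the log2 fold changes of the 82 values of named members, 525 were recomputed under other settings, of which 459 kept direction and call, 48 lost and 10 gained the call and 8 changed sign. All 8 were aged over young. Over all LSK cells mt-Atp8 was -0.28 without the batch term, mt-Nd2 -0.0229 and mt-Nd5 0.0223 with the replicate block, mt-Nd2 -0.00854 and mt-Nd6 -0.0773 with a limit of 5%, and mt-Nd5 0.00217 with no limit. In HSC-like cells mt-Atp8 was -0.33 without the batch term and mt-Nd5 0.0506 with the replicate block. Leaving out 1 sample gave, over all LSK cells, -0.16 to 0.40 for mt-Atp8, -0.23 to 0.65 for mt-Nd6, -0.82 to 0.24 for mt-Nd4l and -0.27 to 0.25 for mt-Nd5, and in HSC-like cells -0.17 to 0.38 for mt-Atp8, -0.66 to 0.25 for mt-Nd4l and -0.28 to 0.23 for mt-Nd5. The causes were not tested. Members under 10 UMIs in all were too shallow for any comparison.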
